A study of Mus musculus with 86 samples.

Results

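CD45-stained areas of the mouse epidermis were followed from 6 h to 24 h after 1 exposure of the back skin to UVB, and the change between these times was set against what had already happened by 6 h. The areas are the segments labelled CD45 and epidermis, which make up 12 of the 86 samples of the series at these times, 6 at 6 h and 6 at 24 h, and a further 8 at 0 h show where the time course began. All animals were female C57BL/6 wild-type mice 12 to 16 weeks old, and the groups at 6 h and 24 h had received a single 500 mJ/cm2 dose under isoflurane on the shaved back. The same dose is entered for the 0 h samples. Whether their skin had been exposed, shaved or anaesthetised is not settled here. The same 3 mouse numbers (208, 210 and 219) occur at 0, 6 and 24 h, so each time holds 3 mice. No biopsy of unexposed skin at 6 h or 24 h was analysed here. UVB, anaesthesia, shaving, any earlier biopsy of the same animal and the time since them therefore cannot be told apart.

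CD45 is a surface phosphatase carried by leukocytes. In resting mouse epidermis the leukocytes are mainly Langerhans cells, which sample antigen between the keratinocytes, and dendritic epidermal T cells. UVB damages DNA in keratinocytes, which then release cytokines and chemokines, and neutrophils and monocytes enter the exposed skin in the hours that follow. A CD45 area outlined on a section can also take in RNA of the keratinocytes that touch the leukocytes.

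The assay was GeoMx digital spatial profiling, in which probes bound to RNA in a section release their barcodes where light is directed, and the barcodes are counted by sequencing. The deposited counts carry probe identifiers and no gene names, and no table used here pairs the 20175 identifiers with genes. The results are therefore given for probes, the CD45 label could not be checked against leukocyte markers, and no probe sequence is shown. For each mouse and time the segments were added up, and each sum is 1 replicate. At 6 h the sums ranged from 44694 to 108761 counts, at 24 h from 65492 to 422250, and at 0 h from 84992 to 217912. Levels are given as normalized CPM, a count scaled for the size of its sum. The deepest sum at each time came from mouse 210.

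Some libraries stood apart. The 2 segments of mouse 208 at 0 h held 70 and 48 probes that were high in that segment alone, meaning at least 20 counts and over 10 times the level in every other segment of their group, against 0 to 8 probes in every other CD45 epidermis segment. These probes took 9.50% and 7.34% of the counts of the 2 segments, and at most 1.35% in the others. Only 1 of them in each segment was among the tested probes, and neither was called. The counts of calls and the 0 h values that use the 0 h sum of mouse 208 are given with and without it, or with the 0 h value of each mouse.

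Between 6 h and 24 h a large share of the measurable probes changed. Of 907 probes with enough counts to test, 370 (40.8%) were called, that is, had a Benjamini-Hochberg adjusted p under 0.05 in edgeR's quasi-likelihood test with the mouse as a block. There were 192 rises and 178 falls. The median log2 fold change of the rises was 1.61, with a range of 0.78 to 6.37, and 48 of them were at least 4-fold. The median of the falls was -1.57, with a range of -0.69 to -4.34, and 41 of them were at least 4-fold. At the upper end, 9 rises were at least 16-fold, while 1 fall was. The median over all 907 probes was -0.10.

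**Figure D1:**
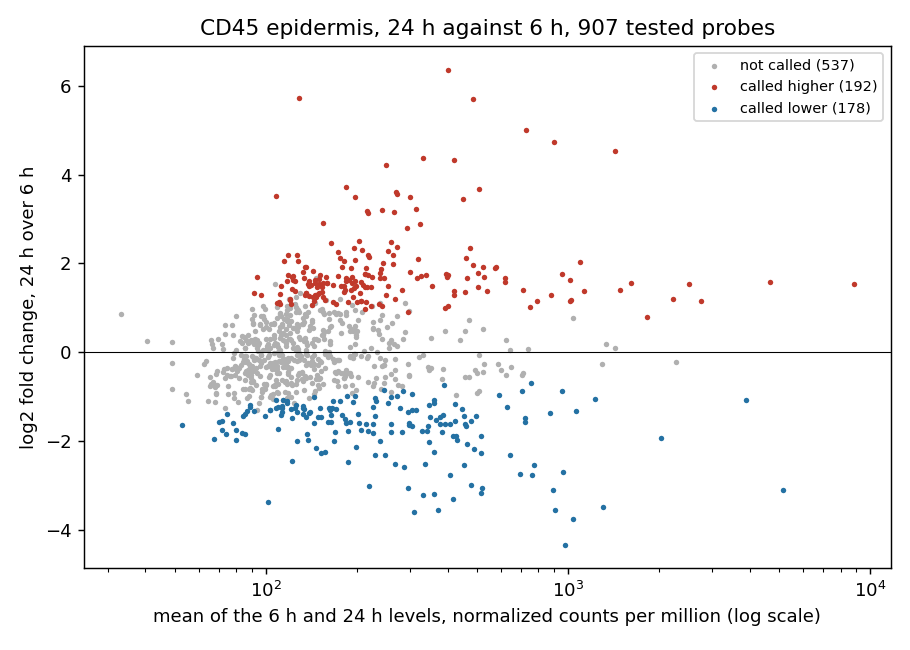
The plot sets the log2 fold change from 6 h to 24 h in CD45 epidermis (vertical axis) against the mean level of each of the 907 tested probes in normalized CPM (horizontal log axis), with 192 probes called higher in red, 178 called lower in blue and the others in grey. Falls lie mostly on the more abundant probes, and the largest rises reach further from 0 than the largest falls.

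At the normalized level, 190 of the 192 rises were higher at 24 h in 3 of 3 mice, and 173 of the 178 falls were lower in 3 of 3. These probes were called from the same 3 mice, so this is a description. Over all 907 probes, 282 were higher in 3 of 3 mice and 298 lower. The median change of the rises was 1.68 in mouse 208, 1.64 in mouse 210 and 1.45 in mouse 219. For the falls it was -1.57, -1.48 and -1.43 in the same order.

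The called probes carried a sizeable part of all counts. The 178 falls held 11.4% ± 1.31 of the counts at 6 h (SD, n = 3 mice) and 2.23% ± 0.43 at 24 h, after 10.8% ± 1.17 at 0 h (10.1% over the other 2 mice without mouse 208). The 192 rises held 3.45% ± 0.82 at 0 h (3.92% without mouse 208), 4.28% ± 0.64 at 6 h and 9.12% ± 0.89 at 24 h. No mouse's 24 h share overlapped the range of the 6 h shares in either group, which follows from how the groups were chosen. In the falls, 141 of 178 lay above the median abundance of the tested probes. In the rises the split was even, with 96 above and 96 below.

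**Figure D2:**
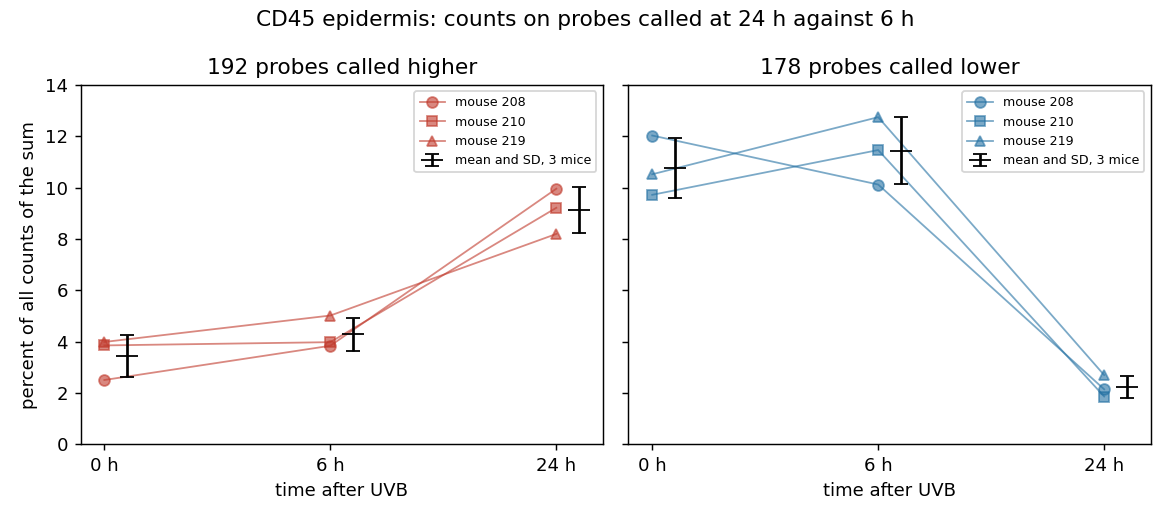
Each panel plots the percent of all counts in a sum (vertical axis) on the 192 probes called higher (left) or the 178 called lower (right) at 0, 6 and 24 h, with a line per mouse and the mean with SD over 3 mice in black. After 6 h the share of the falls was lower in all 3 mice (mean 11.4% to 2.23%) and that of the rises higher (4.28% to 9.12%). From 0 h to 6 h the share of the rises went from 2.50% to 3.84% in mouse 208. It went from 3.85% to 3.98% in mouse 210, which is nearly level, and from 3.99% to 5.01% in mouse 219.

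Fold changes here are relative to the other tested probes, and the number of rises depends on that. The tested probes together held 26.1% ± 2.92 of all counts at 6 h and 18.1% ± 0.99 at 24 h, while 5000 probes with the lowest levels in the deeper layers, taken as a floor, went from 14.2% ± 1.35 to 16.6% ± 0.61. When each sum was scaled to its total count, the median over all tested probes moved by -0.60 and the calls became 95 rises and 332 falls. Scaled to the floor probes, the median moved by -0.83 and the calls became 64 rises and 406 falls. All 178 falls were still called under both scalings. Of the 192 rises, all were still above 0 under total count scaling and 191 under floor scaling, and 95 and 64 were still called. In areas of tissue, fewer cells of a type and less RNA per cell cannot be told apart.

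The count of calls was lower without mouse 210 or mouse 219, and the called share of the tested probes was lower whichever mouse was left out. It was 390 of 1457 tested probes without mouse 208, 220 of 798 without mouse 210 and 211 of 2088 without mouse 219. Without the 0 h sum of mouse 208 it was 446 of 1090, beside 370 of 907 in the main fit. With the 24 h segments of mouse 210 thinned to the next deepest 24 h sum, 379 probes had enough counts to test and 180 were called.

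To say what started only after 6 h, a probe called at 24 h had to be uncalled at 6 h with the 95% interval of its change from 0 h to 6 h inside 2-fold in either direction. By this rule 108 falls and 14 rises started after 6 h. The 108 falls had a median log2 change of 0.05 from 0 h to 6 h (range -0.39 to 0.45) and of -1.59 from 6 h to 24 h, and their median level went from 430 to 128 normalized CPM. The 14 rises had a median change of -0.01 by 6 h (range -0.35 to 0.25) and of 1.44 after it, and their median level went from 184 to 703. A further 5 of the called probes, 3 rises and 2 falls, had already been called at 6 h.

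For the remaining 175 rises and 68 falls the change by 6 h was measured too loosely, or was too near 2-fold, to place them. Rises were rarer at 6 h than falls: over all 192 rises the median was 20 counts over the 3 mice, against 80 over all 178 falls. In the 68 falls left unplaced the median change by 6 h was 0.46 with a median SE of 0.35. In those 175 rises the median change by 6 h was 0.38 with a median SE of 0.47, so a start before 6 h could be neither shown nor held to under 2-fold. Had a missed threshold at 6 h (unadjusted p of 0.05 or more) been taken as no change, 157 rises and 158 falls would have been placed after 6 h. Asking only that the interval allow no 2-fold change in the later direction gave 66 rises and 152 falls. The total of 122 fell to 10 without mouse 210 (0 rises, 10 falls) and 27 without mouse 219 (3 and 24), was 100 without mouse 208 (17 and 83), and was 93 without the 0 h sum of mouse 208 (18 and 75). With no filter 1 rise and 36 falls were placed after 6 h, and under floor scaling 2 rises and 148 falls.

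**Figure D3:**
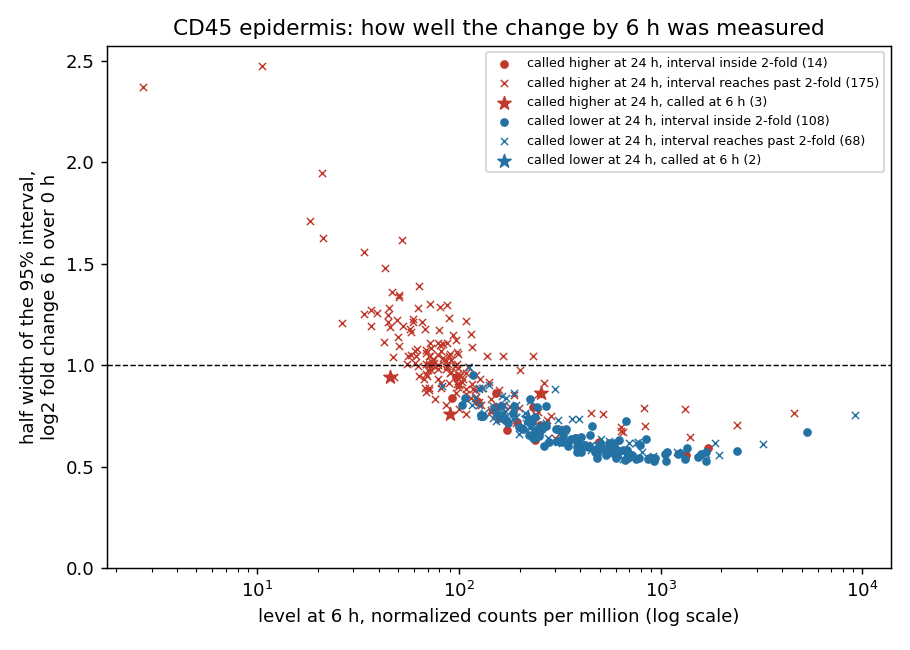
For the 370 probes called at 24 h against 6 h, the plot sets how far the 95% interval of the change from 0 h to 6 h reaches to either side (vertical axis, log2 units) against the level at 6 h in normalized CPM (horizontal log axis); filled circles are the 14 rises and 108 falls whose interval lay inside 2-fold, crosses the other 175 and 68, and stars the 3 and 2 already called at 6 h. The interval narrows as the level rises, and most rises sit at the low-level, wide-interval end.

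RTS0069819 was the fall after 6 h with the smallest p. Its normalized level was 2457, 1639 and 1749 CPM at 0 h in mice 208, 210 and 219, and 1956, 1515 and 1569 at 6 h. At 24 h it was 81.2, 140.0 and 184. The 24 h values lay far below all 6 earlier ones, which overlapped each other. The log2 change was -3.57 (SE 0.34, adjusted p = 6.9e-07) after 6 h and -0.21 (95% interval -0.78 to 0.36) before it.

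RTS0070033 followed the same course. It stood at 3013, 2126 and 1729 normalized CPM at 0 h, at 2639, 2615 and 1902 at 6 h, and at 227, 167 and 276 at 24 h. The change was -3.49 (SE 0.33, adjusted p = 6.9e-07) after 6 h and 0.09 (-0.49 to 0.66) before it. Again the 0 h and 6 h values overlapped and no 24 h value came near them.

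RTS0069751 was the rise after 6 h with the smallest p. It measured 152, 160 and 120 normalized CPM at 0 h and 182, 179 and 159 at 6 h, in the same order of mice. At 24 h it measured 731, 860 and 644. The rise of 2.12 (SE 0.30, adjusted p = 2.4e-05) followed a change of 0.25 (-0.43 to 0.93). All 3 values at 24 h were well above the highest earlier one.

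RTS0070665 was slightly lower at 6 h than at 0 h in each mouse before it rose. Its level was 311, 311 and 300 normalized CPM at 0 h, 227, 269 and 222 at 6 h, and 958, 1127 and 663 at 24 h. The early change of -0.35 (-0.98 to 0.28) was not called, and the later one of 1.92 (SE 0.29) was (adjusted p = 5.9e-05). The counts behind the 6 h values were 10, 33 and 14, and neither of these 2 rises was called when all 20175 probes entered the fit (adjusted p = 0.12 for RTS0069751 and 0.226 for RTS0070665).

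Few probes were called by 6 h. Of the same 907 probes, 18 (1.98%) were called at 6 h against 0 h, 5 higher (log2 change 1.48 to 2.83) and 13 lower (-1.42 to -3.39), and 137 had an unadjusted p under 0.05. All 18 moved the same way in 3 of 3 mice, but they were called from these same mice, so this is a description. The 24 h against 6 h and the 6 h against 0 h comparisons share the 6 h sums, so their values are set side by side and no likeness between them is read. With the filter set at 2 times the floor level, 0 of 3136 probes were called in edgeR (290 at an unadjusted p under 0.05), and limma on segment means called 2 of the 907. Without mouse 219 the count was 5, and without the 0 h sum of mouse 208 it was 31 (9 higher, 22 lower).

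Most of the probes called by 6 h were not called again after it. Of the 5 early rises, 4 were not called at 24 h against 6 h, 1 was called higher again, and all 5 were called at 24 h against 0 h. Of the 13 early falls, 9 were not called afterwards, 2 were called lower still and 2 were called higher, and 12 were called at 24 h against 0 h. The median change of the early falls after 6 h was 0.22, with a range of -1.35 to 1.34.

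RTS0067032 rose by 6 h and was not called thereafter. It had 28.9, 16.4 and 40.0 normalized CPM at 0 h in mice 208, 210 and 219, then 182, 89.6 and 380 at 6 h, and 195, 167 and 129 at 24 h. The early change was 2.83 (SE 0.51, adjusted p = 0.00577) and the later one -0.08 (-0.96 to 0.80). The early change was not called without mouse 219 (adjusted p = 0.176). It rested on 4 counts in each 0 h sum, and the 6 h values of the 3 mice spread more than 4-fold without reaching down to the 0 h values.

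RTS0068906 climbed in both intervals. Its levels were 93.9, 49.2 and 40.0 normalized CPM at 0 h, 136, 293 and 333 at 6 h, and 503, 522 and 626 at 24 h. At this scaling no 2 times overlapped. As plain CPM, a count over the total of its sum, the level was 134, 331 and 434 at 6 h. It was 399, 362 and 519 at 24 h, so these 2 times then overlapped. The log2 change was 2.08 (SE 0.41, adjusted p = 0.00777) by 6 h and 1.05 (SE 0.34, adjusted p = 0.0202) after it. The first of these was not called without mouse 210 (adjusted p = 0.143) or without mouse 219 (adjusted p = 0.451).

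RTS0068366 fell early and was not called after that. It went from 643, 717 and 350 normalized CPM at 0 h to 91.0, 163 and 127 at 6 h, and stood at 195, 181 and 166 at 24 h. The change was -2.08 (SE 0.33, adjusted p = 0.00469) by 6 h and 0.39 (-0.40 to 1.19) after it. All values at 6 h and 24 h lay below the lowest at 0 h.

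RTS0068351 fell early and, at the normalized level, came partly back. It measured 441, 500 and 400 normalized CPM at 0 h, 45.5, 114 and 111 at 6 h, and 292, 215 and 166 at 24 h. The fall of -2.20 (SE 0.36, adjusted p = 0.00469) was followed by a rise of 1.18 (SE 0.39, adjusted p = 0.0236). The normalized 24 h values lay between the other 2 times in every mouse. As plain CPM, mice 208 and 210 went from 44.7 to 232 and from 129 to 149 after 6 h. Mouse 219 went from 145 to 137. The 6 h level of this probe rested on 2, 14 and 7 counts, and the fall missed the threshold without mouse 219 (adjusted p = 0.0566). The probe was chosen on its change by 6 h, and the later rise starts from the same 6 h sums, so the 2 changes are not independent.

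**Figure D4:**
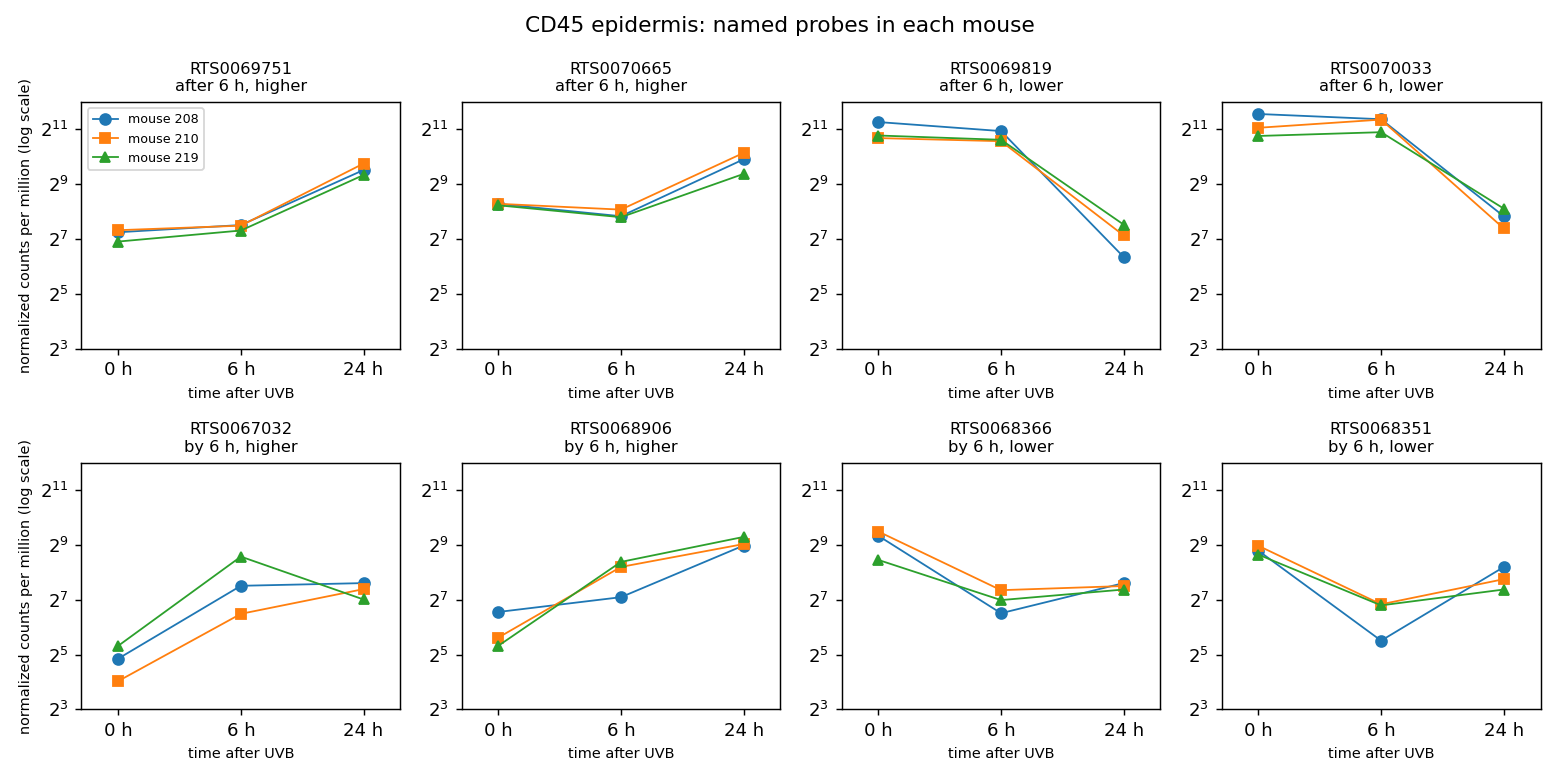
The 8 panels plot the normalized CPM (log axis) of the named probes at 0, 6 and 24 h, with a line per mouse; the upper row holds the 2 rises and 2 falls that started after 6 h, the lower row the 2 rises and 2 falls called by 6 h. The upper probes were chosen for a small change by 6 h, and their lines move most after it (RTS0070665 is lower at 6 h than at 0 h in each mouse); the lower probes were chosen for a change by 6 h.

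The probes that moved were unevenly spread over the identifier numbers, a feature that no rule had used. Of the 93 listed probes with numbers from 75700 to 75799, 63 were tested, which is 67.7% against 4.50% of all listed probes. None of the 63 was called higher after 6 h and 47 were called lower, so this run of numbers held 26.4% of all falls on 6.95% of the tested probes. Outside it 131 of 844 tested probes fell. No other run of 100 numbers held more than 7 falls, but the others had fewer tested probes. From 69700 to 69799, 7 of 8 tested probes fell (median change of all 8 -2.66), and from 69800 to 69899, 5 of 7 (median -3.10). Of the 63 probes, 61 had a change below 0 after 6 h, with a median of -1.35. By 6 h their median change was 0.13, none was called, and 42 of the 47 falls met the rule for a start after 6 h.

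The share of counts on these 93 probes was lower at 24 h in every mouse. They took 3.50%, 3.20% and 3.25% of all counts in CD45 epidermis at 0 h in mice 208, 210 and 219. At 6 h their share was 2.90%, 3.77% and 4.40%, and at 24 h it was 1.14%, 1.07% and 1.39%. In PanCK epidermis, the areas stained for keratins of epithelial cells, the share was 4.25% ± 0.40 at 0 h (SD, n = 3 mice). It went from 4.61% ± 0.38 at 6 h to 2.31% ± 0.28 at 24 h. In CD45 deep dermis it went from 3.62% ± 0.12 to 2.73% ± 0.72, where the lowest 6 h value and the highest 24 h value nearly touched.

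Rises were gathered in another stretch. Numbers from 67000 to 67999 held 51 rises and 5 falls among 90 tested probes, or 26.6% of all rises on 9.92% of the tested probes. Their median change was 1.27 after 6 h and 0.38 by 6 h, and 49 of the 51 rises were among those that could not be placed before or after 6 h. The 981 listed probes of this stretch took 8.82% ± 0.26 of all counts at 24 h, against 6.34% ± 0.35 at 6 h and 4.38%, 5.50% and 5.57% in mice 208, 210 and 219 at 0 h. Their share was also higher at 24 h than at 6 h in PanCK epidermis (7.24% ± 0.09 and 5.78% ± 0.18), and the 2 times overlapped in CD45 deep dermis (6.19% ± 0.47 and 5.90% ± 0.76). Early falls had a stretch of their own, since 6 of the 13 lay between 68300 and 68399, where 18 probes were tested. These 3 stretches were picked after the values were seen, so they are descriptions with no test, and the labels and file headers do not say what the order of the identifiers stands for.

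**Figure D5:**
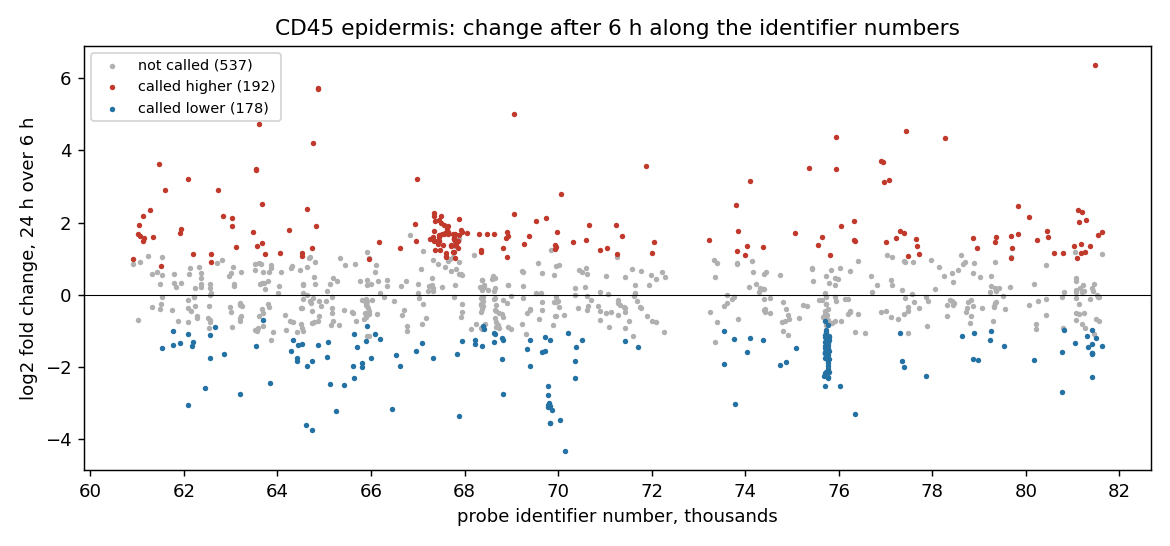
The log2 fold change from 6 h to 24 h (vertical axis) of the 907 tested probes is plotted along the number in the probe identifier (horizontal axis, in units of 1000), with calls coloured as 192 higher in red and 178 lower in blue. A dense column of 47 falls stands in the run from 75700 to 75799 and a cloud of 51 rises lies between 67000 and 67999.

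In the neighbouring PanCK epidermis, most of the falls and few of the rises were called as well. Fitted alone, that compartment had 318 of 6076 tested probes called at 24 h against 6 h (5.23%), 63 higher and 255 lower. Of the 178 falls of CD45 epidermis, 175 were tested there and 129 were called lower, none higher, with a median change of -1.21. The PanCK list held 203 falls among the 869 probes tested in both, so that the 129 were 73.7% of one list and 63.5% of the other. Of the 192 rises, 172 were tested there, 8 were called higher and 1 lower, with a median of 0.47. These 8 were all the rises that PanCK epidermis had among the 869 probes. The median over all 869 probes was -0.57 in PanCK epidermis. That PanCK called few of the rises is no test of a difference, which follows.

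The difference between the 2 changes was tested in 1 fit with each biopsy as a block. That fit scales both kinds of area together, so its differences are not the separate changes subtracted: over the 845 probes in all 3 fits they were lower by a median of 0.56 on the log2 scale. Of 1577 probes, 80 (5.07%) changed differently, 22 toward higher values in CD45 epidermis and 58 toward lower. Among the rises 21 of 191 tested rose more in CD45 epidermis than in PanCK epidermis, and among the falls 51 of 176 fell more. The rises and falls were chosen on the CD45 epidermis change, 1 side of this difference, so the direction follows from the choice and is a description. In the joint fit the difference was -2.71 for RTS0069819 and -2.62 for RTS0070033 on the log2 scale (adjusted p = 3.0e-08 and 1.5e-09), while both also fell in PanCK epidermis (-1.54 and -1.49). It was 1.77 for RTS0070665 (adjusted p = 8.6e-04) and 1.29 for RTS0069751 (adjusted p = 0.0198). RTS0068906, whose second climb was 1.05 in CD45 epidermis, changed by -0.98 in PanCK epidermis after 6 h, which was not called there, and the difference in the joint fit was 1.5 (adjusted p = 0.0167). Without mouse 210 the number of differing probes was 20.

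Some of the early changes were also present in PanCK epidermis, where 50 of 6076 probes (0.823%) were called at 6 h against 0 h. All 5 early rises of CD45 epidermis were tested there and 4 were called higher. Of the 12 early falls tested there, 6 were called lower, with a median of -1.37. RTS0068351 fell by 1.65 and RTS0068366 by 1.62 in PanCK epidermis, while RTS0068906 rose by 1.89.

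In CD45 deep dermis, the same stain in the layer below, the period after 6 h was nearly without calls. There, 1 of 624 tested probes was called at 24 h against 6 h (0.16%), and 69 had an unadjusted p under 0.05. At 6 h the segments of mouse 219 held 4244 and 12832 counts there, against 10771 and 37605 in CD45 epidermis. Those of mouse 208 held 38025 and 15243 (23370 and 21324 in CD45 epidermis), and those of mouse 210 held 56513 and 81269 (59143 and 49618). With 1 mouse this shallow, few calls do not show a layer without change. Of the falls of CD45 epidermis, 127 were tested in that layer and 0 were called, with a median change of -0.16. Of the rises, 95 were tested and 1 was called, with a median of 0.49. Tested directly, 120 of 759 probes (15.8%) changed differently between the layers, 46 toward higher values in the epidermis and 74 toward lower. These included 34 of 151 rises that rose more and 70 of 154 falls that fell more in the epidermis, a direction that the choice of these probes on the epidermal change fixes. The difference between the layers was -3.39 for RTS0069819 and -3.34 for RTS0070033 on the log2 scale (adjusted p = 2.9e-04 and 1.4e-04). For RTS0070665 it was 1.58 (adjusted p = 0.0137). It was not called for RTS0069751 (1.17, adjusted p = 0.14) or RTS0068906 (1.11, adjusted p = 0.144). The count of 120 differing probes became 25, 58 and 67 without mouse 208, 210 and 219 in turn, and 67 without the biopsy block.

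At 0 h, 360 of 4627 probes (7.78%) differed between PanCK and CD45 epidermis, which gives a description of the areas that uses no later biopsy. Of the 178 probes higher in PanCK areas, 88 were among the 907, and after 6 h none was called higher and 56 were called lower, with a median of -1.43. Their share of the CD45 epidermis counts went from 5.77% ± 0.13 at 6 h to 1.32% ± 0.18 at 24 h (SD, n = 3 mice), after 4.96% ± 0.74 at 0 h (4.55% without mouse 208). Of the 182 probes higher in CD45 areas, 79 were tested, with 22 rises, 11 falls and a median of 0.30. Their share was 4.41% ± 0.18 at 0 h (4.52% without mouse 208), where the list was chosen, and then 2.37% ± 0.17 at 6 h and 2.05% ± 0.19 at 24 h. The 700 tested probes that did not differ at 0 h had 135 rises, 111 falls and a median of -0.07. With mouse 208 left out at 0 h, 11588 probes were tested over 2 mice and the lists grew to 469 and 292 probes. Of the 205 tested PanCK probes then 2 rose and 113 fell (median -1.14), and of the 71 CD45 probes 22 rose and 9 fell (median 0.31). The part of keratinocyte RNA inside the CD45 areas in these falls was not tested.

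The most abundant probes took a smaller part of the counts at 24 h in every mouse. The 100 most abundant probes of each sum took 8.96% ± 0.76 of the counts at 24 h, against 12.7% ± 1.29 at 6 h and 13.2% ± 2.04 at 0 h (12.0% without mouse 208). The lowest 6 h share was 11.7% and the highest 24 h share 9.73%, so the 2 times did not overlap. The 24 h sums were deeper than the 6 h sums: 77684 against 44694 counts in mouse 208, 422250 against 108761 in mouse 210, and 65492 against 48376 in mouse 219. The 0 h sums of mice 208 and 219 (120532 and 84992) were deeper than their 24 h sums. Shares at equal depth were not taken. With 3 pairs of mice the smallest two-sided exact p is 0.25, and no test was made. Of the 178 falls, 108 were still above 2 times the floor level at 24 h, and of the 192 rises, 166 were already above it at 6 h.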

How the data were processed

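Each deposited file lists the counts of 1 segment by probe. Per the file headers, GeoMx NGS Pipeline 2.3.3.10 wrote them. The count columns have no names and no normalization is recorded. In 18 files the same deposited numbers were entered as other, because 2 quality values above them are equal and their column could not be named uniquely, and they were read alike. No source used here gives the probe panel or genome build. The no template control entered no fit.

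Counts were summed per mouse, compartment and time. CD45 epidermis was fitted over 0, 6 and 24 h (9 sums of 20 segments) in edgeR 4.0.16 (under R 4.3.3 and beside limma 3.58.1), blocked by mouse, with filterByExpr at its minimum count of 10, which here asked for at least 118 CPM (a count over the total of its sum) in 3 sums, TMM scaling over the probes kept, the quasi-likelihood F test and Benjamini-Hochberg adjustment over all probes tested. A rise can pass this filter through its 24 h sums: 103 of the 192 rises reached that level in fewer than 3 of the other sums. Of the 178 falls, 142 reached it in fewer than 3 of the 24 h sums, so they passed through earlier ones. Normalized CPM use the TMM scaling in place of the total, with the 9 sizes set to the same geometric mean as the totals. An SE is the log2 change over the root of F. DESeq2 1.42.0 and limma were alternatives.

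Same-numbered mice are the same animal per the labels, which is where the block comes from. The deviations of same-numbered sums from their time means correlated at a median of 0.02, against -0.01 for other pairs. Whether the segments of a mouse are separate pieces of skin is not stated, and p-values measure the spread between these sums.

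Named probes are the 2 rises and 2 falls with the smallest p among those starting after 6 h and moving alike in 3 of 3 mice, and the 2 of each called by 6 h with the smallest p. The comparison, the class rules and the lists were chosen with earlier results of these data known. Gene and marker lists were not run, since no identifier was paired with a gene. No 2 segments held identical counts.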

Additional observations from a re-analysis of the deposited data

Results flagged for a closer look

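Among the 6 CD45 epidermis segments at 6 h, 1 segment of mouse 208 held 1.10% of its counts on 3 probes that were high in that segment alone, against at most 0.39% in the other 5. None of the 3 was tested. A single value far from the rest was looked for in 33 sets of segment values (totals, evenness, such probes and the named probes at each time), of which chance alone flags about 1 in 20. That search looks for 1 outlying segment and misses the pair of mouse 208 at 0 h, whose 9.50% and 7.34% stood further from the rest.

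The change from 6 h to 24 h differed between places by a direct test: 80 probes between CD45 epidermis and PanCK epidermis, and 120 between CD45 epidermis and CD45 deep dermis.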

How the results depend on the processing

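In the comparison it was named for, none of the 8 named probes changed direction under an alternative that tested it. Of the 192 rises, 1 did so under floor scaling, where 191 stayed above 0. The 370 calls at 24 h against 6 h became 186 (36 higher, 150 lower) with no filter and 20175 probes tested, 205 (69 and 136) with a filter at 2 times the floor level and 3136 tested, 178 with every sum thinned to the smallest and 382 tested, 260 (52 and 208) in limma on segment means, and 180 with the 24 h segments of mouse 210 thinned; leaving out a mouse gave 211 to 390. The 18 calls at 6 h became 0 with the filter above the floor (edgeR, 290 at an unadjusted p under 0.05), 10 in DESeq2, 2 in limma, 9 with mouse 210 thinned at 24 h, 31 without the 0 h sum of mouse 208, and 5 to 27 without a mouse. The 122 probes starting after 6 h became 37 with no filter, 69 above the floor, 42 in DESeq2, 66 in limma, 43 thinned, 315 by p alone, 218 by the one-sided rule, and 10 to 100 without a mouse. The 80 differences from PanCK epidermis became 48 in DESeq2, 23 in limma and 20 to 77 without a mouse, and split 31 and 33 under floor scaling. The 120 differences from deep dermis became 42 with no filter, 63 in DESeq2, 19 in limma, 22 thinned, and 25 to 67 without a mouse. They split into 24 higher and 95 lower under floor scaling, 30 and 105 under total count scaling, 15 and 7 thinned, and 31 and 27 without mouse 210. The 360 probes that differed at 0 h became 761 without mouse 208. Fewer probes tested is part of thinning; other causes were not tested. Total count scaling, the thinning of mouse 210, the 0 h sums left out and the one-sided rule were chosen after seeing the data. With no replicate block (no pairing by mouse or biopsy) the 5 counts were 376, 18, 123, 60 and 67, so only the last moved by more than 1.5 times. The 1 shallow segment, with fewer than 7134 counts, was of CD45 deep dermis at 6 h, and none was of CD45 epidermis. Without it the 120 differences from deep dermis became 121 of 732 tested. Thinning every sum to the smallest left 18 calls at 6 h against 0 h.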
